A study of Mus musculus with 16 samples.

Results

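The comparison described here is the effect of genotype on the pituitary transcriptome that appears on both diets, in 16 of the 16 pituitary libraries of the series. All 8 libraries labelled Esr1Nkx2-1Cre mutant were set against all 8 labelled Ctrl, in a model with a term for genotype and a term for diet, and every gene was read. The study profiled the pituitary of control females and of females whose *Esr1* gene is deleted by an Nkx2-1 driven Cre, on a standard diet (SD, called chow in the labels) and after a high-fat diet (HFD). The mice were females of 27 weeks, 4 in each combination of genotype and diet, and the HFD groups had eaten that diet for 17 weeks. Controls carried the floxed allele without Cre (Esr1fl/fl), and the mutants carried the same allele with Cre, on a mixed CD-1;129P2 background.

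Cre under the *Nkx2-1* promoter acts in cells that express *Nkx2-1* or descend from cells that did, in the hypothalamus and other organs, so the deletion need be neither made in every pituitary cell nor limited to the pituitary. RNA of the whole gland was sequenced, with 1 library per mouse. In such a sample, fewer cells of a type and less RNA per cell cannot be told apart. Every mouse is 1 replicate, and p-values set a genotype difference against the spread between mice.

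The anterior pituitary holds endocrine cells that secrete prolactin, growth hormone, the gonadotropins, thyrotropin and corticotropin. The intermediate lobe holds melanotrophs, and the posterior lobe holds nerve endings from the hypothalamus and pituicytes. *Esr1* encodes oestrogen receptor alpha, a transcription factor activated by its ligand, which in this gland is best known for raising prolactin synthesis and lactotroph growth and for feedback on gonadotrophs. In lactotrophs oestrogen also raises the peptides galanin and VIP, and the tissue it enlarges gains capillaries.

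Values are a normalised expression signal per gene, as deposited. They summed to 908897 to 1335782 per mouse (median 966116). The number of reads is not given, so counting error could not be computed. The prolactin gene *Prl* alone took 28.8% to 40.6% of the sum. The 7 hormone genes *Cga*, *Fshb*, *Gh*, *Lhb*, *Pomc*, *Prl* and *Tshb* were above 0 in every mouse, as the labelled tissue requires.

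Some libraries stood apart from their groups. Mice are named here by the animal numbers of the labels. P357, a mutant on SD, had the highest sum of values, 533 genes listed at 0 against 96 to 310 in the other mice, and a summed value of the mitochondrial genes of 119409 against 32247 to 49368. Its 5 markers of melanotrophs and the intermediate lobe summed to 1679, with *Pomc* the most abundant at 1654 and none at 0, against 12414 to 15279 in the other mutants on SD. P392, a control on HFD, was also low in these markers, at 3508, and had 3 of 9 posterior lobe markers at 0. P356, a control on SD, had values between the genotypes in several of the genes described next, and P385, a control on HFD, in some of them. Results are therefore given with all mice and, where they rest on these libraries, without P357 and P392.

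The targeted gene, *Esr1* (ENSMUSG00000019768, chr10:4611593-5005614 of GRCm38, GENCODE M21), is described first. Its values in the controls were 40.5, 46.6, 39.4 and 29.0 on SD and 23.6, 43.4, 42.7 and 39.6 on HFD. In the mutants they were 10.02, 22.2, 20.5 and 21.8 on SD and 33.4, 27.9, 33.0 and 21.5 on HFD. The genotypes did not overlap on SD, whereas on HFD P385, a control, lay among the mutants, and the lowest value of the 16 mice was that of P357. Over both diets the log2 difference, mutant minus control, was -0.71 ± 0.20 (standard error, 8 mice per genotype, limma adjusted p = 0.0372). An exact permutation test of the genotype labels within each diet, counting both directions, gave p = 0.00449, where the smallest p the 4900 arrangements allow is 0.000408. The difference was -1.09 ± 0.25 on SD and -0.34 ± 0.25 on HFD (exact permutation p = 0.0286 and p = 0.2), so *Esr1* itself is not among the genes shared by both diets as defined next. The call depended on single mice: *Esr1* was called in 5 of the 16 fits that left out 1 mouse, those without P357, P385, P392, P339 or P387, and its adjusted p in those 16 fits ran from 0.0148 to 0.0787 (limma). A value per gene sums all its transcripts and does not show whether the deleted exon was present. *Nkx2-1*, whose promoter drives the Cre, was low in all mice, between 0 and 2.32 in controls and between 0.414 and 1.46 in mutants, and was not called (limma adjusted p = 0.875).

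Of 17362 genes listed, 14345 reached a mean value of 1 across mice and were tested. A gene is named called where its genotype difference over both diets had an adjusted p under 0.05 (limma). There were 997 called genes, or 6.95% of those tested, 685 higher (4.78%) and 312 lower (2.17%) in mutants, and 3277 had an unadjusted p under 0.05. After quantile normalization 655 were called higher and 512 lower (limma). Every one of the 997 had the same sign on both diets, which a difference averaged over the diets favours. A shared gene is a called gene that also had an unadjusted p under 0.05 on SD and on HFD, in contrasts that use different mice. There were 695 shared genes (4.84% of those tested), 510 higher (3.56%) and 185 lower (1.29%). Of the 302 other called genes, 250 had an unadjusted p under 0.05 on SD only and 52 on HFD only. The median log2 difference over all tested genes was 0.00. It was 0.85 in the shared genes that were higher, with 203 of the 510 at 1 or more, and -0.62 in those that were lower, with 45 of the 185 at -1 or less.

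The 2 diets' fold changes were compared across genes, as a description. The mice behind them are different, but genes are not independent replicates. Across the 14345 tested genes, the log2 differences on SD and on HFD had a Pearson r of 0.612 and a Spearman rho of 0.454, and 9139 genes (63.7%) had the same sign. By mean expression, r was 0.556 for genes between 1 and 5, 0.661 between 5 and 20, 0.548 between 20 and 100 and 0.812 above 100. With the range of the animal numbers as a further term, described further on, r over all tested genes was 0.387. Selection on 1 diet and reading on the other avoids using a mouse for both steps. In the 8 mice on SD alone, 311 genes had an adjusted p under 0.05 (limma). Of these, 300 (96.5%) had the same sign on HFD, 189 (60.8%) had it with an unadjusted p under 0.05, and 1 had the opposite sign with such a p. In the 8 mice on HFD alone, 0 genes passed (limma) and 1649 had an unadjusted p under 0.05. Of the 1649, 1376 (83.4%) had the same sign on SD and 621 (37.7%) had it with an unadjusted p under 0.05 there.

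**Figure D1:**
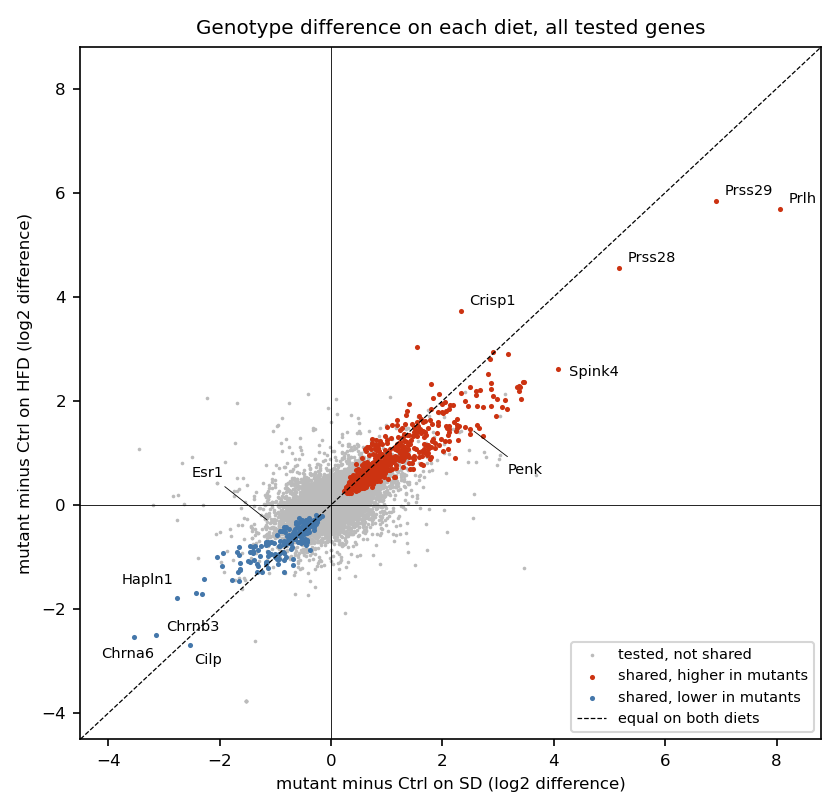
Log2 difference between mutants and controls on SD (x axis) and on HFD (y axis) for each of the 14345 tested genes, with the 510 shared genes higher in mutants in red, the 185 lower in blue and the dashed line marking equal differences. The 510 and the 185 lie in opposite corners by their definition, and most of the genes with large differences lie on the side of the dashed line where SD is larger.

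The difference was larger on SD than on HFD in 495 of the 695 shared genes (71.2%). Their medians were 0.88 on SD and 0.79 on HFD for the genes that were higher, and -0.66 and -0.64 for those that were lower. The interaction of genotype and diet, which tests whether the effects differ, passed in 0 genes (limma, smallest adjusted p 0.152), with 602 (4.2%) at an unadjusted p under 0.05, and 4 of the 695 shared genes were among those, a number kept low by their definition. In 105 genes, or 0.732% of those tested, mutants and controls did not overlap within either diet and the direction was the same on both, 68 higher and 37 lower, whereas in 7 genes the directions were opposite. Of the 695 shared genes, 92 (13.2%) had no overlap within either diet, and 56 (8.06%) had none over all 16 mice. Of all tested genes, 62 (0.432%) had none over all 16 mice. The shared genes were chosen by their genotype difference in these same mice, which favours such separation.

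P392 bears on all these counts. For each mouse, its log2 value in each shared gene was compared with the mean of the other mice of its own group and with the mean of the other genotype on its diet. P392, labelled Ctrl, was nearer to the mutants in 558 of the 695 shared genes (80.3%), although those genes were chosen with P392 counted as a control. The same share was 35.0% in P356 and 21.6% in P357, and between 1.73% and 14.7% in the other 13 mice. Its *Esr1* value of 39.6 lay among the controls. Without P392, 2007 genes were called, among them all 997, and 1300 were shared. Without P357 and P392, 2761 genes were called, or 19.2% of those tested, 1702 higher (11.9%) and 1059 lower (7.38%), among them 988 of the 997 in the same direction, and 1725 were shared, among them 654 of the 695. The r between the diets was then 0.716. Leaving out a control that lies nearer to the mutants widens the differences of such genes, so the higher counts without P392 are no independent check. No mouse was left out of the values that follow unless stated, and list counts given without P357 and P392 are to be set against the 11.9% and 7.38% of that fit. All lists were chosen with earlier results of these data known, so their shares of called genes are a description. The labels give a genotype for every mouse but no genotyping result and no stage of the oestrous cycle, so whether P392 and P356 are rightly labelled or differ in stage could not be checked, and values of the controls are read with that limit.

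The largest shared difference was that of a peptide precursor. *Prlh* (ENSMUSG00000090550, chr1:90953108-90954027) encodes prolactin releasing peptide, a ligand made mainly by brainstem and hypothalamic neurons. Its values in the mutants were 322, 236, 418 and 358.05 on SD and 317, 379.9, 363 and 180.1 on HFD. In the controls they were 17.1, 0, 0 and 0 on SD and 7.71, 0, 0 and 556 on HFD. It was listed at 0 in 5 of the 8 controls and stayed far below the mutants in P356 and P385, whereas P392 was above every mutant. The log2 difference was 6.88 ± 1.19 over both diets (standard error, limma adjusted p = 0.00406), 8.07 on SD and 5.68 on HFD, and 7.98 without P357 and P392. These sizes depend on the 0.5 added before the logarithm, because most controls were at 0.

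*Penk* (ENSMUSG00000045573, chr4:4133531-4138819) encodes proenkephalin, the precursor of the enkephalin opioid peptides. The controls had values of 58.2, 71.8, 72.0 and 47.1 on SD and 38.0, 41.5, 54.1 and 130.3 on HFD. The mutants had 463, 295, 357.5 and 308 on SD and 218, 137, 103 and 218 on HFD. Every mutant was above every control on SD, and on HFD the only overlap came from P392. Its log2 difference was 1.99 ± 0.26 (standard error, limma adjusted p = 0.00146), and an exact permutation test within diets gave p = 0.000816, counting both directions. The difference was 2.50 on SD and 1.47 on HFD (exact permutation p = 0.0286 and p = 0.0571). *Penk* overlaps *A830012C17Rik* on the opposite strand, and whether reads were assigned by strand is not stated, so a part of its value may come from that gene.

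*Vip* (ENSMUSG00000019772) encodes vasoactive intestinal peptide, which stimulates lactotrophs. It was 4.65, 2.63, 2.57 and 2.91 in controls on SD, 2.65, 2.21, 3.64 and 5.004 in controls on HFD, 37.8, 9.15, 24.8 and 24.7 in mutants on SD and 17.0, 7.11, 6.604 and 13.7 in mutants on HFD. No mutant overlapped any control over all 16 mice, P392 included, and the log2 difference was 2.07 ± 0.29 (standard error, limma adjusted p = 0.00168). *Gal* encodes galanin, a peptide of lactotrophs in rodents. Its log2 difference was 2.50 (limma adjusted p = 0.00968), with mutants between 1819 and 3910.1 and controls between 94.7 and 2548, where P356 and P392 were the highest controls, at 1294 and 2548. *Vgf*, the gene of a granule protein cut into several peptides, was higher by 2.03 (limma adjusted p = 0.0120), and *Nmb*, which encodes neuromedin B, by 0.65 (limma adjusted p = 0.0473, called in 4 of the 16 fits without 1 mouse). Of 30 tested genes in a list of neuropeptide precursors, these 6 were called higher and 0 lower (limma, 20% against 6.95% of all tested genes), and without P357 and P392 7 higher and 3 lower. *Nmb* overlaps *Sec11a* on the same strand and shares sequence with it, so a part of the *Nmb* value may come from that gene. *Pdyn*, the precursor of the dynorphins, was not called (limma adjusted p = 0.693).

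Enzymes and their inhibitors came next. *Prss28* and *Prss29* encode secreted serine proteases of the tryptase family, known from the uterus at implantation, and are neighbours on chromosome 17, 6778 bases apart. *Prss29* (ENSMUSG00000034039, chr17:25318654-25322684) was 2.71, 0.456, 0 and 0 in controls on SD and 0.731, 0.140, 0.378 and 370.0 in controls on HFD. In the mutants it was 91.8, 122, 93.4 and 156 on SD and 340.7, 285, 205 and 138 on HFD. *Prss28* (ENSMUSG00000024171, chr17:25308646-25311876) was 0.178, 0, 0 and 0.0562 in controls on SD, 0, 0, 0.0621 and 59.1 in controls on HFD, 20.1, 18.1, 18.7 and 21.5 in mutants on SD and 37.3, 46.8, 63.3 and 21.8 in mutants on HFD. In 7 of the 8 controls both genes were near or at 0, while in P392 *Prss29* was above every mutant and *Prss28* above all mutants but P387. The log2 differences were 6.38 ± 0.98 and 4.87 ± 0.75 (standard error, limma adjusted p = 0.00219 and 0.00213). These sizes too depend on the 0.5 added before the logarithm, because most controls were near or at 0. *Spink4*, a secreted inhibitor of the Kazal type that is found mainly in goblet cells of the gut, was higher by 3.34 (limma adjusted p = 0.00300). These 3 were the called members of a list of serine proteases and inhibitors with 15 tested genes (20% against 6.95%), of which 4 were called higher without P357 and P392. This list too was chosen with earlier results of these data known, so its share is no independent check.

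Since these neighbours moved together, the 300 bases around their start sites are shown, from 250 before to 50 after the start, on the strand of the gene and as RefSeq gives them for GRCm38.p6. Capitals mark the single arm of an oestrogen response element, AGGTCA or its reverse complement. A match is a description of the sequence and not a site of binding.
Prss28, chr17:25308396-25308695, plus strand: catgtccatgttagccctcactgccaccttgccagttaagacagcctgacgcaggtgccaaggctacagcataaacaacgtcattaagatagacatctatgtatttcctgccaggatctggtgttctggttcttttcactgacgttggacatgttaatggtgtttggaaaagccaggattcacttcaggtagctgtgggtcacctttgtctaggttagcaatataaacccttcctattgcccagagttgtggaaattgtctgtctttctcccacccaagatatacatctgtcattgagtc
Prss29, chr17:25318404-25318703, plus strand: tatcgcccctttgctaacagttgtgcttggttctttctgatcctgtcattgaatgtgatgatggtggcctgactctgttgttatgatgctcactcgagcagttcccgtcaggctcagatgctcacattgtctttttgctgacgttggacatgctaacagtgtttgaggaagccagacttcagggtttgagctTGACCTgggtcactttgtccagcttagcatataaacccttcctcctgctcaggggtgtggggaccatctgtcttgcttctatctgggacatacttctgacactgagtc
Placed base against base without a gap, the promoters of *Prss28* and *Prss29* had the same base at 118 of 300 positions (39.3%), and the longest unbroken run found in both at any position was 15 bases. An alignment with gaps was not made. That of *Prss29* held 1 arm and that of *Prss28* held 0.

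Among the 24 genes with the largest shared differences, 3 had no genotype overlap over all 16 mice, against 0.432% of all tested genes. The 24 were chosen by the size of their difference in these same mice, which favours such separation. *Adamts19* (ENSMUSG00000053441, chr18:58836667-59054060), a secreted metalloprotease of the ADAMTS family, was 1 of these 3. It was 1.15, 0.396, 0.112 and 0.163 in controls on SD, 0.939, 0.197, 0.130 and 2.85 in controls on HFD, 11.98, 8.88, 11.6 and 5.71 in mutants on SD and 5.29, 7.95, 6.52 and 3.72 in mutants on HFD. P392 was the highest control and lay below the lowest mutant. Its log2 difference was 2.91 ± 0.34 (standard error, limma adjusted p = 0.00146). *Crisp1*, a secreted cysteine-rich protein known from the epididymis, was higher by 3.03 (limma adjusted p = 0.00271), and it was 1 of 3 among the 24 with a larger difference on HFD (3.72) than on SD (2.33). In *Crisp1*, P392 was the lowest control, at 0.708, and the mutant P357 was low, at 2.54.

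*Slc5a5*, the sodium iodide symporter best known from the thyroid, was 13.3, 10.4, 14.5 and 7.06 in mutants on SD and 9.86, 10.5, 17.0 and 7.41 in mutants on HFD, and between 0.435 and 1.21 in the controls except P392, at 19.0. Its log2 difference was 2.83 ± 0.49 (standard error, limma adjusted p = 0.00415). *Cd36*, a receptor for fatty acids and lipoproteins, was higher by 2.83 (limma adjusted p = 0.00173), and *Ak5*, an adenylate kinase of brain, by 2.93 (limma adjusted p = 0.00367). *Dio2*, the deiodinase that makes active thyroid hormone inside the cell, was higher by 1.34 (limma adjusted p = 0.00739) and was the 1 called gene of 5 thyrotroph markers, a list too short to be set apart from the 6.95% of all tested genes.

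The largest decreases were those of a pair of receptor subunits. *Chrna6* (ENSMUSG00000031491, chr8:27403212-27413944) and *Chrnb3* (ENSMUSG00000031492, chr8:27368711-27399730) encode the alpha 6 and beta 3 subunits of nicotinic acetylcholine receptors, which assemble together in dopamine neurons. They lie 3482 bases apart on chromosome 8 and are transcribed towards each other. *Chrna6* was 3.30, 48.6, 44.3 and 26.8 in controls on SD, 6.48, 49.8, 17.1 and 1.29 in controls on HFD, 2.01, 1.02, 0.898 and 1.87 in mutants on SD and 0.925, 0.881, 1.89 and 1.57 in mutants on HFD. *Chrnb3* was 4.36, 28.4, 29.1 and 29.4 in controls on SD, 5.51, 32.1, 20.2 and 1.55 in controls on HFD, 1.18, 2.06, 1.29 and 2.14 in mutants on SD and 0.818, 0.907, 1.79 and 1.40 in mutants on HFD. All mutants were low in both genes, whereas the controls were spread: P356 and P385 were a few units above the mutants, P392 was at their level, and the others were between 17.1 and 49.8 in *Chrna6*. The log2 differences were -3.04 ± 0.60 and -2.82 ± 0.49 (standard error, limma adjusted p = 0.00801 and 0.00427). Of the 6 tested nicotinic receptor genes, these were the 2 called (33.3% against 6.95% of all tested genes). The list was chosen with earlier results of these data known, so its share is no independent check.

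*Asic2* and *Asic4*, which encode acid-sensing channels, were named for the size of their shared differences and moved in opposite directions. Their family was not read as a list, so nothing is said of its other members. *Asic2* was higher by 2.90 (limma adjusted p = 0.0116), with P356 and P392 at 41.1 and 93.9 and the other controls at 15.4 or less. *Asic4* was lower, with a log2 difference of -1.85 (limma adjusted p = 0.00720), and only P392, at 5.92, lay among the mutants. *Asic2* and *Asic4* overlap genes on the opposite strand, so their values are uncertain to that extent. Of 38 tested potassium channel genes, 7 were called higher and 4 lower (limma, against 4.78% and 2.17% of all tested genes), and 6 and 2 of these were shared. Without P357 and P392, 11 were called higher and 10 lower. *Kcnt2* and *Kcnt1*, sodium-activated channels, were higher by 1.29 and 1.35 (limma adjusted p = 0.00168 and 0.0178), and *Kcng1*, a subunit that modifies other channels, was lower, at -1.48 (limma adjusted p = 0.0120). *Kcnt2* had no overlap over all 16 mice. Of 27 tested calcium and sodium channel genes, 3 were called higher and 0 lower (limma, 11.1% against 6.95%), and without P357 and P392 7 higher and 5 lower. Among the 3 was *Cacna1g*, a low-voltage calcium channel (1.97, limma adjusted p = 0.0314, called in 5 of the 16 fits without 1 mouse). Of 25 tested receptor genes for GABA and glutamate, 2 were called higher and 5 lower (limma, 28.0% against 6.95%), with 2 shared in each direction, and without P357 and P392 5 higher and 9 lower. *Grik2*, a kainate receptor subunit, was lower at -0.70 (limma adjusted p = 0.00612), and *Grm7*, a metabotropic glutamate receptor, was higher by 1.18 (limma adjusted p = 0.0135).

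**Figure D2:**
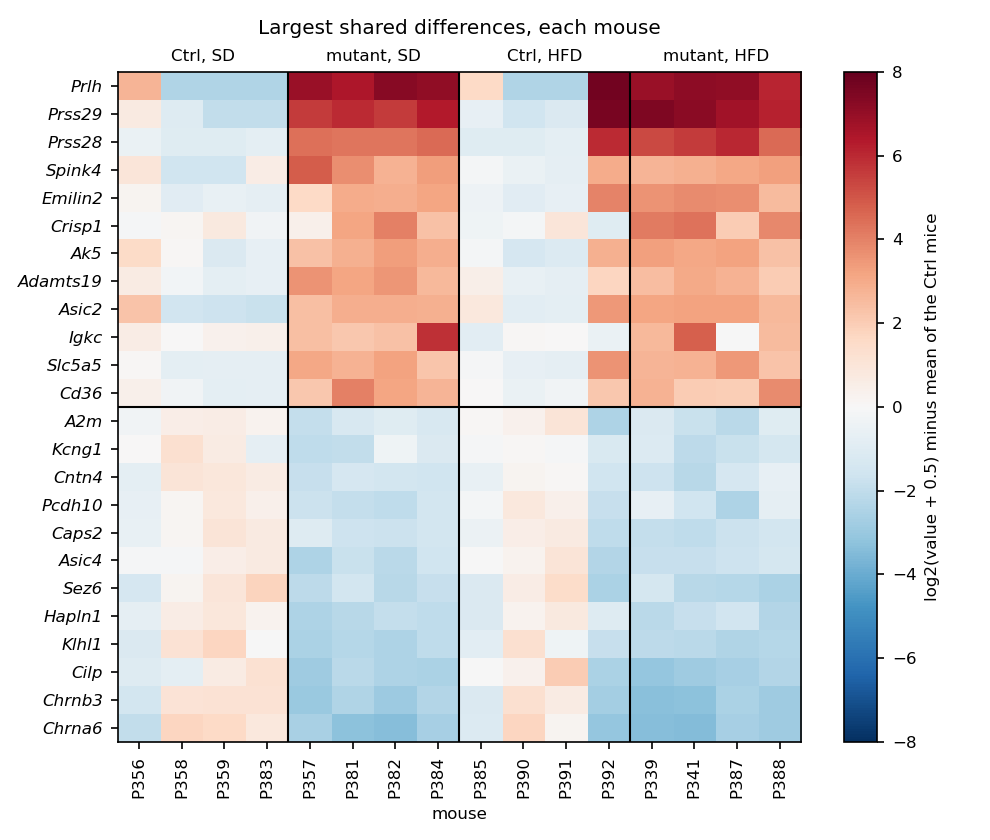
The 24 genes with the largest shared differences (rows, 12 higher above and 12 lower beneath) in each of the 16 mice (columns, by group), coloured by log2(value + 0.5) minus the mean of the 8 controls. P392, the last control on HFD, has the colours of the mutants in most genes, and P356, the first control on SD, is intermediate in several.

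Among the 24 genes of the heat map, P392 was nearer to the mutants in 22 and P356 in 10, and all 24 were called without P357 and P392. Leaving out a control that lies with the mutants favours such calls, so they are no independent check. The difference was larger on SD in 21 of the 24. *Hapln1*, a link protein that binds hyaluronan in the matrix around cells, was 5.71, 15.0, 18.1 and 11.9 in controls on SD, 4.03, 11.9, 17.0 and 4.46 in controls on HFD, 1.34, 1.71, 2.14 and 2.001 in mutants on SD and 1.81, 2.32, 2.95 and 1.53 in mutants on HFD. No mutant reached the lowest control, P385, and the log2 difference was -2.05 ± 0.29 (standard error, limma adjusted p = 0.00168). *Klhl1*, an actin-binding protein of neurons, had no overlap either and was lower at -2.28 (limma adjusted p = 0.00588). *Klhl1* and *Hapln1* overlap genes on the opposite strand. The other decreases of the 24 were *Cilp*, a matrix protein of cartilage, at -2.61, *Sez6*, a membrane protein of neurons, at -2.01, *Caps2* at -1.62, the adhesion genes *Pcdh10* and *Cntn4* at -1.57 and -1.52, and *A2m*, a plasma protease inhibitor, at -1.44. Of these, *Sez6* was called in 11 and *A2m* in 5 of the 16 fits without 1 mouse (limma), and the others in all 16.

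Of 24 tested genes of G protein signalling, 4 were called higher and 0 lower (limma, 16.7% against 6.95% of all tested genes), but without P357 and P392 the counts were 6 and 5. The 4 were *Rgs5*, *Npy1r*, *Oxtr* and *Rgs3*, at 1.20, 1.17, 2.19 and 0.75. *Npy1r*, a receptor of neuropeptide Y, had no overlap over all 16 mice, from 0.327 to 1.23 in controls and from 1.26 to 3.72 in mutants (limma adjusted p = 0.00403). These low ranges almost meet, and *Npy1r* shares stretches of sequence with 698 other genes, so its value is uncertain. *Oxtr*, the oxytocin receptor, was 8.89 in P356, among the mutants, and 28.1 in P392, above them, and was called in 4 of the 16 fits without 1 mouse (limma adjusted p = 0.0389 with all). *Rgs3* shares sequence with other genes over more than 50% of a transcript, so its value is uncertain. Of 25 tested genes of prohormone processing and secretion, 2 were called in each direction (16% against 6.95%), and 6 in each without P357 and P392. With all mice, *Vgf* and *Rab3a*, a granule GTPase (0.59), were higher, and *Qpct*, which forms pyroglutamate at the end of peptides (-0.92), and *Pcsk4* (-0.55, called in 7 of the 16 fits without 1 mouse) were lower (limma).

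**Figure D3:**
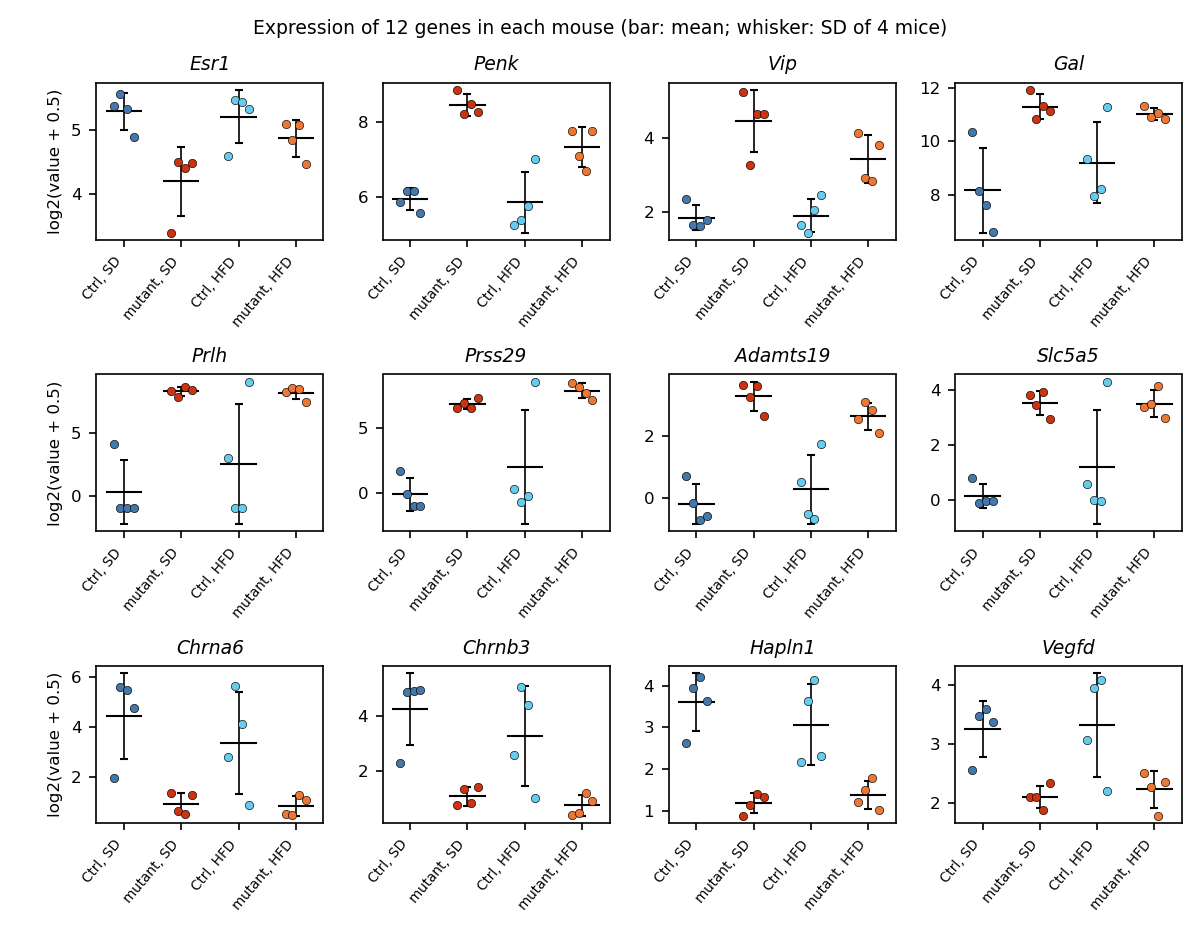
Log2(value + 0.5) of 12 genes in each mouse by group, with the group mean as a bar and the standard deviation of 4 mice as a whisker. In *Vip*, *Adamts19* and *Hapln1* no mutant overlaps a control, whereas in each of the other genes at least 1 control overlaps the mutants, most often P392.

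Growth factor pathways were read from lists. Of 13 tested genes of the IGF axis, 5 were called higher and 1 lower (limma, against 4.78% and 2.17% of all tested genes), with a median log2 difference of 0.38 against 0.00. *Igfbp3* and *Igfbp5* encode binding proteins that hold IGFs outside cells. *Igfbp5* was 178, 196, 167 and 163 in controls on SD, 153, 179.9, 181 and 298 in controls on HFD, 259, 296, 283 and 276 in mutants on SD and 262, 273, 256 and 274 in mutants on HFD, so that only P392 overlapped the mutants (log2 difference 0.55 ± 0.11, standard error, limma adjusted p = 0.00707). *Igfbp3* was higher by 1.52 (limma adjusted p = 0.00460). *Irs4*, an adaptor of the insulin and IGF receptors, was the 1 called lower, at -0.69 (limma adjusted p = 0.00870). Without P357 and P392, 9 were called higher and 1 lower.

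Of 24 tested genes of Wnt signalling, 7 were called higher and 0 lower (limma, 29.2% against 6.95%), with a median of 0.23, and without P357 and P392 11 higher and 1 lower. *Tcf7l2*, a DNA-binding partner of beta-catenin, was 3.06, 3.30, 2.70 and 3.16 in controls on SD, 3.26, 3.80, 3.96 and 10.7 in controls on HFD, 12.3, 10.7, 12.7 and 11.7 in mutants on SD and 11.8, 10.9, 14.1 and 8.04 in mutants on HFD. Again P392 alone lay among the mutants, and the log2 difference was 1.45 ± 0.20 (standard error, limma adjusted p = 0.00168). *Sfrp2*, a secreted Wnt antagonist, was higher by 1.56 (limma adjusted p = 0.00850), *Wnt10a*, a ligand, by 1.16 (limma adjusted p = 0.00612), and *Lgr6*, a receptor of R-spondins, by 1.69 (limma adjusted p = 0.0257, called in 8 of the 16 fits without 1 mouse). Under quantile normalization 8 were called higher and 1 lower. Of 20 tested genes of activin and inhibin signalling and their antagonists, 2 were called higher and 0 lower (limma, 10% against 6.95%), and without P357 and P392 5 higher and 2 lower. The 2 were *Nog*, an antagonist of BMPs (1.38, limma adjusted p = 0.00683), and *Inhbb*, a subunit of inhibin B and activin B (0.59, limma adjusted p = 0.0248, called in 9 of the 16 fits without 1 mouse). *Fst*, the activin antagonist follistatin, was under the filter, with values of at most 0.987 in controls and 1.23 in mutants. Of 4 tested genes of the CCN family 1 was called (against 6.95% of all tested genes), *Ccn1*, which was higher (1.05, limma adjusted p = 0.0240), whereas *Ccn3* was not called with all mice (0.48 ± 0.23, standard error, limma adjusted p = 0.210), with values of 0.730 to 1.65 in controls and 0.551 to 2.97 in mutants. The call of *Ccn3* depended on the mice set apart: it was called without P357, and without P357 and P392 (0.71, limma adjusted p = 0.0152).

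Vessel genes were read from marker lists. All 14 genes of an endothelial list had a positive log2 difference on both diets, 9 were called (64.3%, limma, against 6.95% of all tested genes) and 6 shared, and the median was 0.54 against 0.00. None was at 0 in any mouse, and *Plvap*, a protein of the diaphragms of fenestrated capillaries, was the most abundant. The summed value of the 14 genes was 188, 214, 201 and 174 in controls on SD and 348, 299, 294 and 262 in mutants on SD. On HFD it was 167, 181, 187 and 339.8 in controls and 297, 282, 287 and 265 in mutants. On SD every mutant was above every control, and on HFD so but for P392, the highest of that diet. *Egfl7*, *Cdh5* and *Pecam1*, which encode a secreted vessel protein and the adhesion proteins of endothelial junctions, were higher by 0.64, 0.62 and 0.60 (limma adjusted p = 0.0107, 0.0164 and 0.0131). The count of called members was 13 without P357 and P392, 7 with the range of animal numbers in the model, 5 with libraries scaled to the same sum without *Prl* and the mitochondrial genes, and 0 at an adjusted p under 0.01, and the median was positive in each. The count also rests on single mice: *Egfl7*, *Cdh5* and *Pecam1* were called in all 16 fits without 1 mouse, whereas *Plvap* was called in 8, *Robo4* in 6, *Tek* in 5, *Eng* and *Kdr* in 3 each and *Tie1* in 2.

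Of 24 tested genes of angiogenic signalling, 7 were called higher and 2 lower (limma, 37.5% against 6.95%), and without P357 and P392 15 higher and 2 lower. *Vegfa*, the main growth factor of endothelial cells, was 79.1, 32.6, 44.5 and 44.5 in controls on SD, 56.2, 50.4, 35.9 and 160.4 in controls on HFD, 126, 116, 123 and 102 in mutants on SD and 127, 129, 129 and 85.5 in mutants on HFD (log2 difference 1.07 ± 0.24, standard error, limma adjusted p = 0.0165). P392 was above every mutant, and the others did not overlap within a diet. *Dll4*, a Notch ligand of sprouting vessels, and *Sema3a*, a guidance cue, were higher by 0.82 and 1.36 (limma adjusted p = 0.0109 and 0.0117). The 2 called lower were *Vegfd*, a ligand for lymphatic growth (-1.12, limma adjusted p = 0.0109), and *Angpt1*, a ligand of the receptor Tie2 that stabilises vessels (-1.17, limma adjusted p = 0.0131). *Vegfa* was chosen after its values were seen, as were *Nmb*, *Robo4*, *Tek*, *Eng*, *Kdr* and *Tie1* above and *Igha*, *Greb1*, *Wnt4* and *Pde10a* further on.

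Of 47 tested genes of the extracellular matrix and its receptors, 12 were called higher and 0 lower (limma, 25.5% against 6.95%), with a median of 0.43. *Itga6*, a laminin receptor subunit, and *Lama4*, a laminin of vessel walls, were higher by 1.00 and 0.92 (limma adjusted p = 0.00394 and 0.00756), and *Fn1*, fibronectin, by 0.96 (limma adjusted p = 0.0120). *Emilin2*, a glycoprotein of elastic matrix and 1 of the 12 largest increases, was higher by 3.03 (limma adjusted p = 0.00489), with P392 at 19.5 and the other controls under 1. *Itga6* shares sequence with other genes over more than 50% of a transcript and *Emilin2* overlaps a gene on the opposite strand. Without P357 and P392, 26 members of the list were called higher and 1 lower. Of 10 tested pericyte and fibroblast markers, *Rgs5* and *Myh11* were called higher (limma, 20% against 6.95%), and 5 without P357 and P392. Their summed value, with *Col1a2* the most abundant and none at 0, was 257, 308, 251 and 249 in controls on SD, 326, 362, 391.1 and 490.2 in mutants on SD, 213, 224, 167 and 834 in controls on HFD and 509, 514, 691 and 339.3 in mutants on HFD. P392 was the highest of all mice. Of 44 tested genes of axon guidance and cell adhesion, 8 were called higher and 2 lower (limma, 22.7% against 6.95%), and without P357 and P392 14 higher and 3 lower. Among the 8 were *Cntnap2* and *Ncam1*, at 0.75 and 0.61 (limma adjusted p = 0.00324 and 0.00415).

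Blood and immune markers also had positive differences. All 16 macrophage and immune markers had a positive difference on both diets, with a median of 0.69, and 3 were called (limma, 18.8% against 6.95%), and 8 without P357 and P392. The 3 were *Mrc1*, a receptor of tissue macrophages (0.91, limma adjusted p = 0.00455), the complement gene *C1qa* (0.92) and *Cx3cr1* (0.73), the last pair each called in 4 of the 16 fits without 1 mouse. Their summed value was 291, 404, 355 and 518 in controls on SD, 561, 400.5, 439 and 1681 in mutants on SD, 248, 359.9, 515 and 795 in controls on HFD and 541, 1344, 449.5 and 452 in mutants on HFD. The mutants P384 and P341 were the highest, *Cd74* was the most abundant and none was at 0. The antibody gene *Igkc* was also highest in P384 and P341. *Igkc*, the kappa light chain constant region, was 23.4, 19.0, 21.8 and 259 in mutants on SD and 26.1, 123, 3.91 and 25.0 in mutants on HFD, and 1.92 to 6.25 in controls (log2 difference 2.84 ± 0.58, standard error, limma adjusted p = 0.00953). *Igha*, the heavy chain of IgA, was 53.3 in P384 and higher by 2.67 (limma adjusted p = 0.00930). Of 6 genes of blood cells, which had a median difference of 1.00, *Hbb-bt* was called higher, or 16.7% against 6.95% of all tested genes (log2 difference 1.19, called in 4 of the 16 fits without 1 mouse), and its sequence is shared with other globin genes. The blood genes summed to 583, 584, 3253 and 1680.3 in controls on SD, 4670.0, 2521, 2812 and 2257 in mutants on SD, 775, 1782, 959 and 1221 in controls on HFD and 2409, 1293, 2077 and 1825 in mutants on HFD, with *Hba-a2* the most abundant. The part of vessel, immune and blood markers in the other results was not tested.

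**Figure D4:**
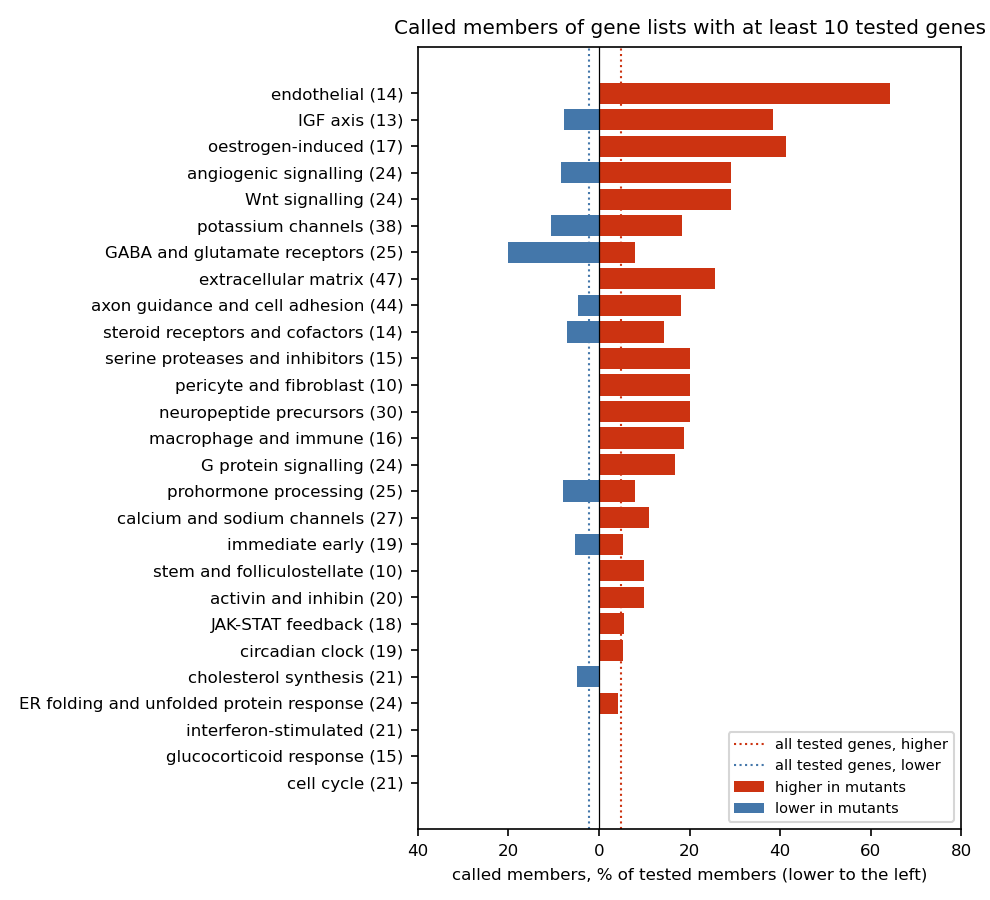
Share of tested members called higher (red, to the right) and lower (blue, to the left) in mutants for each list with at least 10 tested genes, with the number tested in brackets and the shares over all 14345 tested genes as dotted lines. The endothelial list has the highest share, 64.3%, under the settings used for all results, and the lists of the cell cycle, glucocorticoid response and interferon-stimulated genes have 0 called members.

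Genes known to rise with oestrogen were read next. Of 17 tested genes of such a list, 7 were called higher and 0 lower (limma, 41.2% against 6.95%), 6 of them shared, and the median was 0.66 against 0.00. The controls were split in this list: the mean log2 value of its genes was 5.42 in P356, 5.34 in P385 and 5.61 in P392, between 4.54 and 4.75 in the other 5 controls and between 5.54 and 5.84 in the mutants. The 7 were *Vip* and *Gal*, described above, *Areg*, a ligand of the EGF receptor (2.34, limma adjusted p = 0.00588), *Pgr*, the progesterone receptor (0.92, limma adjusted p = 0.0429), *Igfbp4* (0.44, limma adjusted p = 0.0248), *Greb1* (0.71, limma adjusted p = 0.0410) and *Wnt4* (0.66, limma adjusted p = 0.0338). *Pgr* was 17.4, 5.59, 4.56 and 5.93 in controls on SD, 12.9, 7.74, 5.41 and 20.1 in controls on HFD, 10.7, 16.3, 15.7 and 17.0 in mutants on SD and 22.2, 17.4, 20.5 and 16.4 in mutants on HFD. P356, P385 and P392 were the high controls of *Pgr*, and P356 and P392 overlapped the mutants of their diets. *Pgr*, *Greb1* and *Wnt4* were called in 4, 3 and 5 of the 16 fits without 1 mouse. With libraries scaled to the same sum without *Prl* and the mitochondrial genes, 3 members were called, and without P357 and P392, 10.

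The motif to which oestrogen receptors bind was counted in the promoters, of the same 300 bases. A full element was taken as GGTCA, any 3 bases and TGACC, and a single arm as AGGTCA on either strand. Of 10748 tested genes with a promoter in the table, 2 held a full element (0.0186%) and 1639 an arm (15.2%). Of the 510 shared genes that were higher, 368 had a promoter, 1 with a full element (0.272%) and 56 with an arm (15.2%). Of the 185 that were lower, 132 had a promoter, 0 with a full element and 18 with an arm (13.6%). Of the oestrogen-induced genes 14 had a promoter, 0 with a full element and 3 with an arm (21.4%). The 1 shared gene with a full element was *Pde10a*, a phosphodiesterase of cyclic nucleotides, which was higher by 0.48 (limma adjusted p = 0.0307, called in 9 of the 16 fits without 1 mouse), from 7.85 to 17.0 in controls and from 13.2 to 23.7 in mutants. It has 2 starts in the table, and the element, in capitals, lies close to the start with the higher number.
Pde10a, chr17:8849735-8850034, plus strand: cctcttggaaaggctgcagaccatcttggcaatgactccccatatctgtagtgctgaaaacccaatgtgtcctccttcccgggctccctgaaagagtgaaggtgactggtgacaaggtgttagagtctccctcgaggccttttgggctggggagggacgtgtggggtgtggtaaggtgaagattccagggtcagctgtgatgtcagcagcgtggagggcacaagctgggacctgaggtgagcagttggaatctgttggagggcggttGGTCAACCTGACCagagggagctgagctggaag

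The hormone genes were not called with all mice. Log2 differences over both diets were 0.17 for *Prl*, -0.05 for *Gh*, -0.11 for *Pomc*, 0.13 for *Tshb*, 0.11 for *Fshb*, -0.68 for *Lhb* and 0.00 for *Cga*, with limma adjusted p from 0.104 (*Lhb*) to 1.000 (*Cga*). *Lhb*, the beta subunit of luteinising hormone, was 921, 806, 891 and 1158 in controls on SD, 1343, 1035, 986 and 473 in controls on HFD, 1198, 899, 734 and 584 in mutants on SD and 283, 357.96, 360.2 and 675 in mutants on HFD. The mutants on HFD had the 3 lowest values of the 16 mice, and on SD the genotypes overlapped. *Lhb* was called in 2 of the 16 fits without 1 mouse, those without P357 or P392, and without both (log2 difference -0.92, limma adjusted p = 0.00989). None of 8 gonadotroph, 4 somatotroph, 5 corticotroph and 5 melanotroph markers tested was called with all mice (limma), as lists so short can be at the 6.95% of all tested genes, whereas without P357 and P392 2 gonadotroph, 2 corticotroph and 2 lactotroph markers and 1 melanotroph marker were called lower, and 1 somatotroph marker in each direction, where 11.9% of all tested genes were called higher and 7.38% lower. With all mice, 1 of 5 lactotroph markers was called, *Esr1*, and 1 of 10 stem and folliculostellate markers, *Aldh1a2* (20% and 10% against 6.95%). Of 9 posterior lobe markers, *Col25a1* was called higher (0.89), and of 5 tested markers of hypothalamic neurons, *Syt1* (0.57), or 11.1% and 20% against 6.95%.

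Lists of this size hold few called genes at the 6.95% of all tested genes, so the counts of the next lists do not set them apart from the rest. No gene was called of 21 tested for the cell cycle, 21 interferon-stimulated genes and 15 of the glucocorticoid response (limma), whose medians were 0.24, 0.21 and 0.23, and without P357 and P392 3, 0 and 4 of them were called higher, against 11.9% of all tested genes. Of 24 genes of protein folding in the endoplasmic reticulum 1 was called, *Trib3*, and of 21 of cholesterol synthesis 1, *Fdft1*, which was lower. Of 19 clock genes 1 was called, *Bhlhe40*, of 18 genes of JAK-STAT feedback 1, *Ghr*, and of 19 immediate early genes 1 in each direction, *Jund* higher and *Npas4* lower. Without P357 and P392, 4 genes of protein folding, 6 of JAK-STAT feedback and 5 immediate early genes were called higher, 2 genes of cholesterol synthesis in each direction, 1 immediate early gene lower and 1 clock gene higher.

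Shared genes lay on all autosomes and on chromosome X. Their share of the tested genes of a chromosome ran from 3.72% (chromosome 5) to 6.91% (chromosome 1). Within 100 kb of each other on a chromosome there were 74 pairs of neighbouring shared genes, 62 of them with the same direction. Since 510 of the 695 shared genes were higher, many pairs have the same direction by that alone. Other neighbouring genes are not set beside these pairs. Within 5 Mb of *Nkx2-1*, 41 genes were tested and 0 called (limma, adjusted p under 0.05), which with 6.95% of all tested genes called does not set the region apart. Other genes named here that overlap a gene on the opposite strand, and whose values are uncertain in the same way, are *Ak5*, *Dio2*, *Caps2*, *Pcdh10*, *Kcnt2*, *Grm7*, *Rab3a*, *Irs4*, *Sfrp2*, *Egfl7*, *Cdh5*, *Plvap*, *Eng*, *Dll4*, *Sema3a*, *Angpt1*, *Itga6*, *Fn1*, *Cntnap2*, *Ncam1*, *Cx3cr1*, *Greb1*, *Pde10a*, *Rgs3*, *Syt1*, *Aldh1a2*, *Bhlhe40*, *Jund*, *Fdft1*, *Nkx2-1*, *Fst*, *Prl*, *Tshb*, *Lhb* and *Cga*. Predicted gene models made up 27 of the 695 shared genes, 16 higher and 11 lower. The number of such models tested is not given here, so this count cannot be set against the 4.84% of all tested genes.

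How far these results rest on single mice and on the order of the animal numbers was read in refits. Without 1 mouse, called genes numbered between 501 (without P390) and 2007 (without P392), and the shared genes between 363 (without P391) and 1300 (without P392). The count of called genes fell by more than 1.5 times without P358 (633), P359 (532), P383 (534), P381 (597), P382 (558), P384 (612), P390 (501), P391 (519), P341 (644) or P387 (663), and rose by more than that without P392. Called genes named above without such a count were called in all 16 fits, except *Igfbp4*, *Ccn1* and *Bhlhe40* (13 fits each), *Aldh1a2* (10), *Fdft1* (8), *Ghr* (7), *Npas4* (6), and *Rgs3* and *Myh11* (4 each). The r between the diets ran from 0.526 (without P391) to 0.671 (without P392).

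**Figure D5:**
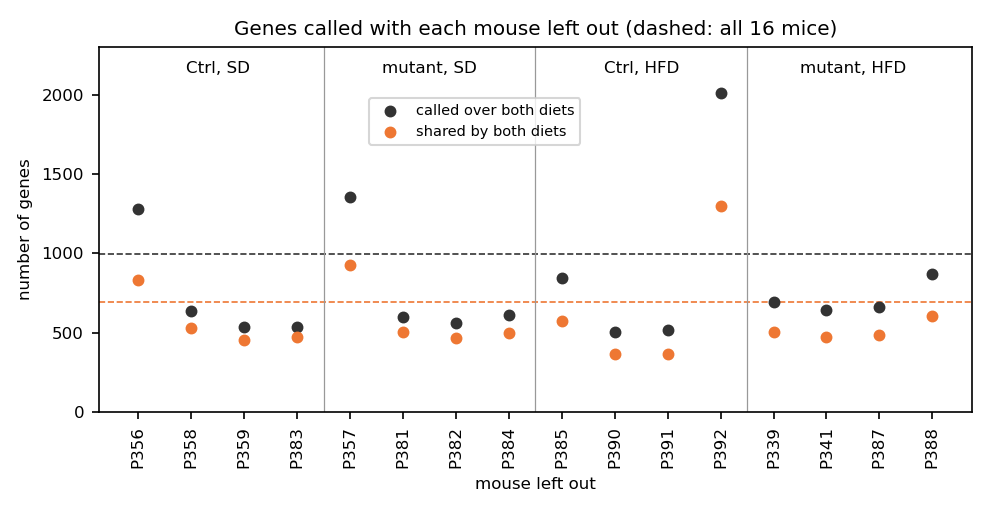
Number of genes called over both diets (black) and shared by both diets (orange), refitted without the mouse on the x axis, with dashed lines at the 997 and 695 of all 16 mice. The highest counts, 2007 and 1300, were reached without P392.

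The animal numbers fall into a lower range (P339 to P359) and an upper range (P381 to P392), and these are unevenly spread over the groups. The lower range holds 3 controls and 1 mutant on SD and 2 mutants on HFD, with no control on HFD. With the range as a further term, 846 genes were called, 834 of them among the 997, 437 were shared and r was 0.387. In the 10 mice of the upper range alone, 5 of each genotype, 0 genes were called (limma) and 2287 had an unadjusted p under 0.05. The upper range has 1 control on SD, P383, so the comparison of the diets there, with an r of 0.579, rests on that mouse. In the upper range the log2 difference over both diets, in mice that also served for the calls, was 6.87 for *Prlh*, 1.86 for *Penk*, 1.79 for *Vip*, -2.85 for *Chrna6* and -0.43 for *Esr1*. The lower range alone cannot give the genotype effect, because its only diet with both genotypes is SD, where P357 is the 1 mutant.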

How the data were processed

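Pituitary RNA of 16 female mice was sequenced by the authors, who used kallisto in gene mode with mm10, and sleuth. The deposited table holds a normalised signal per gene and mouse, without raw counts or read totals. Groups were taken from the labels of genotype and diet. Genes with a mean of at least 1 were kept and log2(value + 0.5) was fitted in limma 3.58.1 (R 4.3.3) with genotype and diet as additive terms, moderated with a mean trend and adjusted by Benjamini-Hochberg, and a fit of 4 group means gave the contrast of each diet and the interaction. Standard errors come from the moderated variance. *Esr1* and *Penk* were also tested by exact permutation of genotype within diets. Named genes are the 12 largest shared differences of each direction without predicted models, up to 4 called members with the smallest p of each of 38 gene lists, and the hormone and study genes with *Esr1*, and genes named outside this rule were chosen after their values were seen. The model, members and lists were chosen with earlier results of these data known. Alternatives changed the filter, the added constant, the scaling, the variance model, the threshold, the model terms and the mice. Shared sequence was searched with BLAST 2.17.0, and pandas 2.3.3, numpy 2.4.6 and, for figures, matplotlib 3.10.9 were run under Python 3.11.15. The scripts were tested on simulated data.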

Additional observations from a re-analysis of the deposited data

Results flagged for a closer look

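Within each group of 4 mice, the largest and smallest values of 37 genes and the mean log2 values of 12 marker lists were compared with the other 3 by Dixon's ratio, which singles out about 1 group in 20 by chance. Of 196 groups searched, 25 held such a value, 10 of them in P392, 5 in P357, 4 in P356, 2 each in P384 and P388 and 1 each in P359 and P385.

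In P392 these were *Prss29* at 370.0, *Prss28* at 59.1, *Spink4* at 11.1, *Emilin2* at 19.5, *Slc5a5* at 19.0, *Kcng1* at 0.641 and *Ccn3* at 1.59. Its mean log2 values were 1.13 for the posterior lobe list, 4.06 for the endothelial list and 3.51 for the pericyte and fibroblast list. In P357 they were *Emilin2* at 3.27, *Esr1* at 10.02 and *Pomc* at 1654, with mean log2 values of 3.66 for the melanotroph and intermediate lobe list and 1.17 for the posterior lobe list. In P356 they were *Prlh* at 17.1, *Asic2* at 41.1, *Slc5a5* at 1.21 and *Chrnb3* at 4.36.

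The others were *Igkc* at 259 and the macrophage and immune list at a mean log2 of 5.19 in P384, *Asic2* at 52.7 and the gonadotroph list at 6.39 in P388, *Nkx2-1* at 2.32 in P359 and *Esr1* at 23.6 in P385. All these mice were kept in the values of the results.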

How the results depend on the processing

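The count of called genes, 997, was 1051, 667 and 1031 with a filter at a mean of 0.1, at 5 and without one, 986 and 994 with 0.1 and 1 added, 986 with median-ratio factors, 1167 after quantile normalization, 816 with libraries scaled to the same sum without *Prl* and the mitochondrial genes, 970 without the mean trend, 983 without diet and 938 from group means. It moved further with array weights (3503, with 1961 shared and r 0.728), at a threshold of 0.01 (211) and with a lobe score as covariate (1499, with 906 shared). In the upper range of animal numbers it was 0, and with the range as covariate 846, with 437 shared and r 0.387.

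Leaving out mice moved all 3 results: 501 to 2007 called, 363 to 1300 shared and r 0.526 to 0.671 over the 16 fits without 1 mouse. Without P357 and P392 they were 2761, 1725 and 0.716, and without P356, P357 and P392, set apart after their values were seen, 3280, 1992 and 0.717. The shared count, 695, was 997 when sign alone was asked, 101 when no overlap on either diet was, and 601 when each diet was fitted alone. The rank correlation was 0.454 against an r of 0.612.

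After quantile normalization 655 genes were called higher and 512 lower, and 460 and 293 were shared. Of the shared genes 61.1% were then higher, against 73.4%. Of 103 called genes examined by name, 102 were kept without P357 and P392, between 72 and 103 without 1 mouse, 95 with the range as covariate, 87 at the same sum, 47 at a threshold of 0.01 and 0 in the upper range. The fits without P392 favour keeping these genes, because P392 lay nearer to the mutants in most shared genes. The lower range alone sets P357 against 3 controls and does not test genotype; *Syt1* (-0.0497) and *Wnt4* (-0.13) had the other sign there. Causes were not tested.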

Other observations

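Histone genes held 8 called higher and 1 lower of 37 tested (limma), against 4.78% and 2.17% of all tested genes, and 7 and 1 of them were shared, against 3.56% and 1.29%. *Hist1h4h* and *Hist1h2bk* were higher by 1.37 and 1.40 (limma adjusted p = 0.00406 and 0.0108). *Rps7*, a ribosomal protein gene, was 77.0, 37.7, 50.5 and 47.2 in controls on SD, 80.8, 40.5, 57.3 and 357.9 in controls on HFD, 456, 354, 399 and 312 in mutants on SD and 343, 340.0, 342 and 343 in mutants on HFD (log2 difference 2.39, limma adjusted p = 0.00168). Histone genes and *Rps7* share sequence with other genes or copies, so these values are uncertain. All were chosen after their values were seen.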
